A study of Gallus gallus with 2 samples.

Results

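The B cell receptor proximal signalling genes are 10 genes for the molecules that act first when antigen binds the receptor on a B cell: a receptor chain (CD79B), 3 kinases (LYN, SYK and BTK), the adaptors PIK3AP1 and GRB2, the exchange factor VAV3, the phospholipase PLCG2 and the phosphatases INPP5D and PTPN6. They were taken by gene symbol from the platform annotation of the array, which gave 23 probe sets for the 10 genes, of 38439 probe sets and 13009 named genes on the array. The signals came from DT40, an established chicken B cell line derived from the bursa of Fabricius. A clone deficient for PTIP, given in the labels as PTIP-/-/-, was set against a wild-type clone, both grown at the same temperature. PTIP, the product of PAXIP1, is a protein of the DNA damage response and a subunit of a histone methyltransferase complex. Each genotype is 1 clone measured on 1 Affymetrix chicken genome array, so no difference below has a replicate check and no test between genotypes exists.

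In B cells the antigen receptor signals through the paired chains CD79A and CD79B. LYN phosphorylates their tails, SYK binds them, and SYK and BTK together activate phospholipase C gamma 2 on an adaptor platform, which releases calcium and diacylglycerol. PIK3AP1 and VAV3 feed the phosphoinositide 3-kinase and RAC branches, whereas INPP5D and PTPN6 hold the response back. DT40 is the line in which many of these genes were knocked out to order the pathway.

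PLCG2 and CD79B were more than 2-fold lower in PTIP deficient cells, and the other 8 genes lay within 2-fold. All 10 were measured, meaning that both signals of the brightest probe set reached a floor of 31.0, set at percentile 40 of all signals of both arrays. All 10 also had both signals above 131.5, the top of the array's probe sets for reporter and marker sequences after 1 bright signal was left out. The signal left out was 2675, brighter than both signals of PIK3AP1, VAV3 and INPP5D. At least 2-fold lower were 2 of 10 genes, beside 4.46% of all 9165 measured genes and 2.79% of the 6658 genes with both signals at or above 131.5. At least 2-fold higher were 0 of 10, beside 5.03% and 3.05% of those genes. The log2 ratio, PTIP deficient minus wild-type throughout, was below 0 for 7 of the 10 genes, beside 47.4% of all measured genes. Its median over the 10 genes was -0.33, beside a median of 0.03 over all measured genes. With 1 array of each, fewer receptor-bearing cells in a culture and less of the RNA per cell cannot be told apart.

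**Figure D1:**
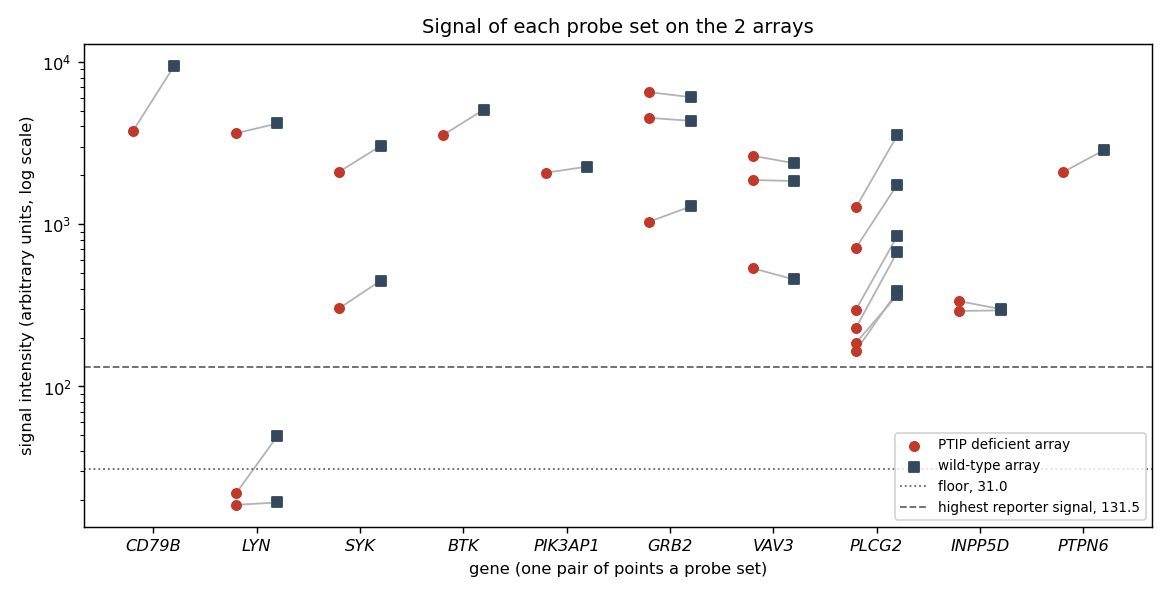
Signal intensity (arbitrary units, log scale) of each of the 23 probe sets, with the PTIP deficient array as circles on the left of each pair and the wild-type array as squares on the right. Dotted and dashed lines mark the floor of 31.0 and the reporter signal of 131.5; all 6 pairs of PLCG2 and the single pair of CD79B slope towards a lower signal in PTIP deficient cells, and 2 pairs of LYN lie at or near the floor.

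CD79B (Entrez gene 419940) encodes the signalling chain that pairs with CD79A beside the surface immunoglobulin. Its only probe set gave a signal of 3732 in the PTIP deficient clone against 9437 in wild-type cells. The signal was 2.53-fold lower, 39.5% of wild-type, with a log2 ratio of -1.34. Among all measured genes, 2.54% had a log2 ratio at or below that value. The manufacturer's suffix _s_at marks it as one that related sequences may also bind, and no second probe set repeats the measurement. CD79A was not analysed here.

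The kinases had lower signals by less than 2-fold. LYN (Entrez gene 421127) is the SRC family kinase that starts the cascade and also arms its inhibitory receptors. It gave a signal of 3632 in the PTIP deficient clone against 4170 in wild-type cells with its 1 measured probe set, a log2 ratio of -0.20. A second LYN probe set had 21.9 against 49.6 and another 18.7 against 19.3, so both were under the floor in at least 1 array and carry no usable ratio. SYK (Entrez gene 427272), the kinase recruited to the phosphorylated receptor tails, was measured with 2 probe sets that gave almost the same ratio. The brighter had 2107 in the PTIP deficient clone against 3034 in wild-type cells (log2 ratio -0.53), and the dimmer had 304 against 449 (log2 ratio -0.57). BTK (Entrez gene 374075), the TEC family kinase that phosphorylates phospholipase C gamma 2, had 3531 in the PTIP deficient clone against 5082 in wild-type cells with its single _s_at probe set. Its log2 ratio of -0.53 left it at 69.5% of wild-type, as SYK was with its brighter probe set. Of all measured genes, 28.1% had a log2 ratio at least as far from 0 as that of SYK, so a difference of this size was common between the arrays.

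PLCG2 (Entrez gene 415805) had the lowest log2 ratio of the 10 genes and the most probe sets. It encodes the phospholipase that cleaves a membrane phosphoinositide into inositol trisphosphate and diacylglycerol. The brightest probe set gave a signal of 1268 in the PTIP deficient clone against 3527 in wild-type cells, a 2.78-fold lower signal and a log2 ratio of -1.48. The other 5 had signals of 715 against 1753, 298 against 845, 230 against 675, 186 against 365 and 166 against 386. All 6 were lower in PTIP deficient cells, and all 12 signals lay above 131.5. At least 2-fold lower were 5 of the 6, the exception being 1.97-fold lower. The log2 ratios ran from -1.55 to -0.98, with a mean of -1.34 ± 0.22 (SD over 6 probe sets of 1 pair of arrays, which are not replicates of the genotype). Wild-type signals of these probe sets spanned 9.65-fold, so the lower ratio was seen with bright and dim probe sets alike. Of all measured genes, 181 (1.97%) had a log2 ratio at or below that of the brightest PLCG2 probe set.

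The adaptors and the exchange factor had nearly equal signals on both arrays. PIK3AP1 (Entrez gene 374268), also known as BCAP, links the receptor to phosphoinositide 3-kinase. It had 2075 in the PTIP deficient clone against 2264 in wild-type cells, a log2 ratio of -0.13 with its only probe set. GRB2 (Entrez gene 386572), the adaptor that carries SOS to the membrane, had 6504 against 6060, 4517 against 4331 and 1036 against 1285 with its 3 probe sets. Their log2 ratios of 0.10, 0.06 and -0.31 straddled 0, so no direction can be given for GRB2. VAV3 (Entrez gene 373939), which loads RAC with GTP, had 2641 in the PTIP deficient clone against 2372 in wild-type cells with the brightest of 3 probe sets. The 3 log2 ratios ran from 0.02 to 0.23, all above 0 and all small.

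Of the phosphatases, INPP5D differed little and PTPN6 had a lower signal by less than 2-fold. INPP5D (Entrez gene 424745), also known as SHIP1, removes the 5-phosphate from the lipid that phosphoinositide 3-kinase makes. Its 2 probe sets had 335 against 300 and 292 against 294 in PTIP deficient against wild-type cells, with log2 ratios of 0.16 and -0.01. The ratios lay on both sides of 0 and both probe sets are of the _s_at kind. PTPN6 (Entrez gene 427947), also known as SHP-1, is the tyrosine phosphatase recruited by inhibitory receptors. It had 2084 in the PTIP deficient clone against 2855 in wild-type cells, 73.0% of wild-type and a log2 ratio of -0.45, with a single _s_at probe set.

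The only repeat measurement on these arrays is that by different probe sets of a gene. Over 4284 genes with at least 2 measured probe sets, the log2 ratios of the brightest pair differed with an SD of 0.50, or 0.36 per probe set, which covers probe error and leaves out the spread between cultures, clones and hybridisations. Against that yardstick 5 of the 10 genes, PLCG2, CD79B, SYK, BTK and PTPN6, had log2 ratios farther from 0 than 0.36, beside 43.1% of all measured genes, a share close to that of the 10. These 5 were all below 0, beside 20.5% of all measured genes that were both below 0 and that far from it. The other 5, LYN, PIK3AP1, GRB2, VAV3 and INPP5D, lay nearer to 0 than that. Of the 21 measured probe sets of the 10 genes, 15 were below 0, 6 of them of PLCG2, and 6 above. The share below 0 over all measured probe sets was not computed. At least 2-fold lower were 6 (5 of PLCG2 and 1 of CD79B), beside 4.69% of all 20310 measured probe sets, and 0 were at least 2-fold higher, beside 4.89%.

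**Figure D2:**
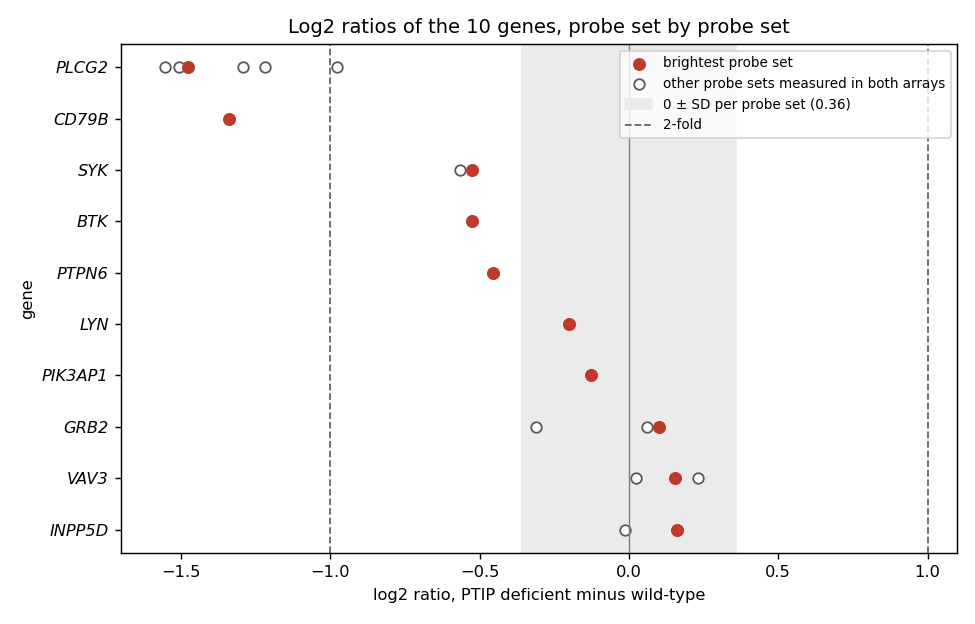
Log2 ratio (PTIP deficient minus wild-type) on the horizontal axis for each gene, lowest at the top; the filled point is the brightest probe set and open points are other probe sets measured in both arrays. The grey band is 0 ± 0.36 and dashed lines mark 2-fold; PLCG2 and CD79B lie beyond the 2-fold line, SYK, BTK and PTPN6 between the band and that line, and the brightest probe sets of the other 5 genes inside the band.

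Several relatives of the 10 had signals near or under those of the reporter probe sets, and levels of different probe sets cannot be set against each other. Of the SRC family, SRC had 498 in the PTIP deficient clone against 600 in wild-type cells (log2 ratio -0.27). FYN had 56.4 against 56.6, under 131.5 in both arrays, and LCK, BLK and FGR were under the floor of 31.0 in both. YES1 had 38.1 against 16.2, so it reached the floor in PTIP deficient cells only. All probe sets of TEC, a relative of BTK, were under 131.5 in both arrays. PLCG1, the sister gene of PLCG2, had 102 in the PTIP deficient clone against 167 in wild-type cells with its brightest probe set, and its other probe sets were under 131.5 in both arrays. VAV2 was 1.68-fold lower, at 232 in the PTIP deficient clone against 389 in wild-type cells with its brightest probe set, and its other 2 were under 131.5 in both arrays. PTPN11, also known as SHP-2, a relative of PTPN6, had 2499 against 1724 and a log2 ratio of 0.54, the opposite sign to PTPN6. INPPL1, also known as SHIP2, had 121 against 35.5 with 1 probe set and 21.9 against 91.5 with another, all under 131.5, so no direction can be read for it.

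The rest of the pathway was described with 7 lists of 151 symbols, of which 120 genes other than the 10 were on the array and 104 were measured in both arrays. Of those 104, 8 (7.69%) passed 2-fold downwards and 10 (9.62%) upwards in PTIP deficient cells, beside 4.46% and 5.03% of all measured genes. Their median log2 ratio was -0.02 and 55 of the 104 were below 0, so the signs of the measured genes had no common direction. With both signals at or above 131.5, 4 of 79 (5.06%) were lower and 4 of 79 higher, beside 2.79% and 3.05%. That count leaves out 2-fold genes with 1 signal under 131.5. On the lower side these were CD72 (at least 22.4-fold) and PRKCD (at least 15.6-fold). On the higher side they were FOXO3, NFKBIE and PRKCQ, with bounds of 1.85-fold, 1.77-fold and 1.25-fold. A further 12 genes were under the floor in both arrays, 3 reached it in PTIP deficient cells only and 1, RASGRP3, in wild-type cells only. RASGRP3, at least 4.74-fold lower, is therefore not among the 8.

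Receptor partners and adaptors had 2 of 12 measured genes at least 2-fold lower, 0 higher and a median of -0.42. DAPP1, an adaptor that binds the lipids made by phosphoinositide 3-kinase, was 3.71-fold lower, at 408 in the PTIP deficient clone against 1511 in wild-type cells. GAB2, the other, had 35.5 against 72.2, both under 131.5. TEC had a log2 ratio of -0.88 from signals of 67.7 against 125. Its second measured probe set gave -2.05, from 31.6, just above the floor, against 131. SH2D6, for which RefSeq lists BLNK, the SYK and BTK adaptor, as a synonym, had 8895 against 8140 and a log2 ratio of 0.13. Whether that probe set reports BLNK itself was not checked.

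SRC family kinases and their regulators had 0 of 5 measured genes 2-fold apart in either direction and a median of -0.03. CSK, the kinase that switches SRC kinases off, had 1248 in the PTIP deficient clone against 1004 in wild-type cells (log2 ratio 0.31). PTPRC, the CD45 phosphatase that switches them on, had 4117 against 4566 (log2 ratio -0.15), and its second measured probe set gave 0.16.

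Inhibitory receptors and phosphatases had 2 of 10 measured genes lower and 1 higher, with a median of -0.35. CD72, an inhibitory co-receptor that recruits PTPN6, had 87.4 in the PTIP deficient clone against 2951 in wild-type cells. Since the first value is under 131.5, it is given as at least 22.4-fold lower, and its second probe set as at least 7.45-fold lower. FCRL4 had 39.8 against 100, both under 131.5, and INPPL1, above, was the gene counted as higher, from signals under 131.5.

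PI3K and AKT genes had 2 of 17 lower and 2 higher, with a median close to 0 (-0.0035). PIK3CD, the leukocyte catalytic subunit of phosphoinositide 3-kinase, was 7.89-fold lower, at 150 in the PTIP deficient clone against 1184 in wild-type cells. Of its 3 other probe sets, 2 had 12.2 against 261 and 4.88 against 185, also lower and under the floor in PTIP deficient cells, and the last had 38.6 against 14.5. FOXO1, a transcription factor that AKT inactivates, was 2.05-fold lower (499 against 1020). FOXO3 was at least 1.85-fold higher (244 against 43.9), and PIK3CB had a log2 ratio of 1.31 from signals of 119 against 48.3, under 131.5 in both arrays, with 3 measured probe sets from 1.02 to 1.32.

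Downstream of PLCG2, calcium and NFAT genes had 0 of 15 lower, 1 higher and a median of 0.17. PPP3CA, a catalytic subunit of the phosphatase calcineurin, was 2.40-fold higher, at 2880 in the PTIP deficient clone against 1198 in wild-type cells, and its 5 measured probe sets ran from 0.99 to 1.58. STIM2, a calcium sensor of the endoplasmic reticulum, was 1.71-fold lower (182 against 310), and PLCG1, above, also stands in this list.

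Ras, MAP kinase and RAC genes had 0 of 23 lower, 3 higher and a median of 0.05. HRAS had a log2 ratio of 1.58 (1829 in the PTIP deficient clone against 611 in wild-type cells) and JUN, an immediate early transcription factor, was 2.19-fold higher (1940 against 887). EGR1, another immediate early gene, had 98.6 against 43.2, both under 131.5. RASGRP3, a Ras exchange factor recruited by diacylglycerol, was under the floor in PTIP deficient cells with both of its probe sets, at 19.7 against 623 and at 1.07 against 832, so it was at least 4.74-fold and at least 6.32-fold lower.

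PKC and NF-kappaB genes had 2 of 22 lower, 3 higher and a median of -0.14. PRKCD, a protein kinase C isoform that diacylglycerol activates, was at least 15.6-fold lower, at 82.1 in the PTIP deficient clone against 2055 in wild-type cells, with a single _s_at probe set. BCL10, an adaptor between protein kinase C and NF-kappaB, was 2.10-fold lower (578 against 1216), and its second measured probe set 2.20-fold lower. PRKCA was 2.53-fold higher (514 against 203) with the only measured one of its 7 probe sets. Its others were under the floor in at least 1 array, and their signals differed in both directions. PRKCQ was at least 1.25-fold higher (165 against 61.4) and NFKBIE at least 1.77-fold higher (233 against 92.2). A second probe set of NFKBIE had 36.8 against 47.3, both under 131.5. The protein kinase C genes thus had values in both directions.

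**Figure D3:**
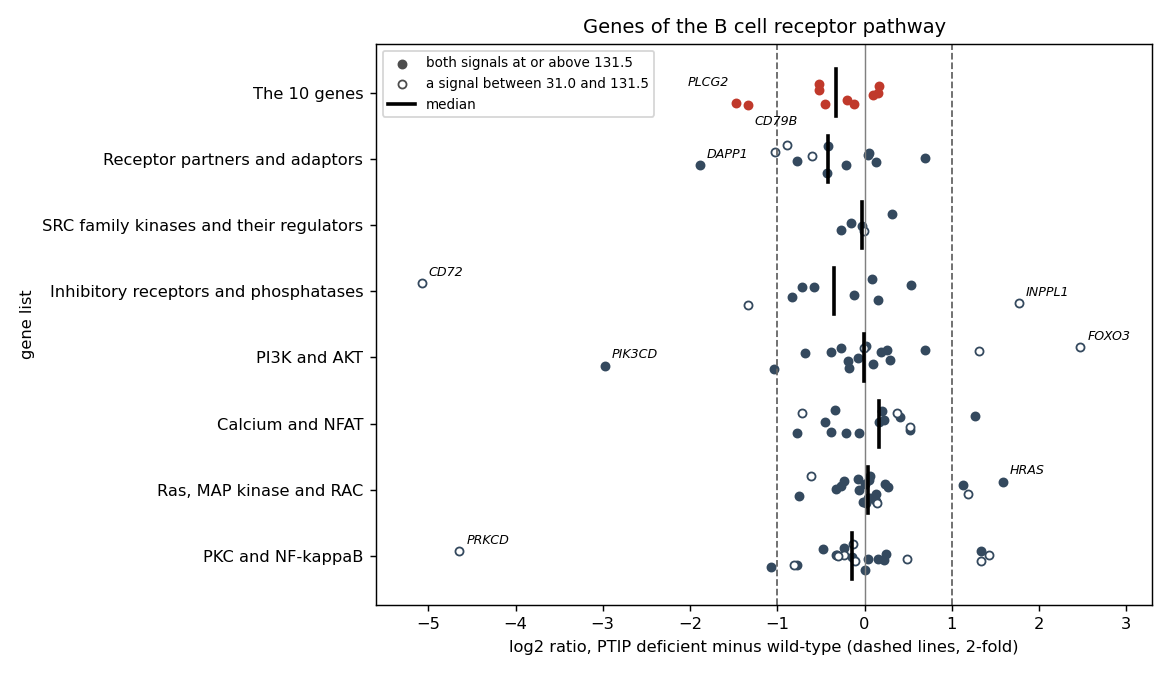
Log2 ratio (PTIP deficient minus wild-type) of the 10 genes in the top row and of the measured genes of the 7 pathway lists in the rows under it, 1 point a gene; the vertical spread of points within a row carries no value. Filled points have both signals at or above 131.5, open points have a signal between 31.0 and 131.5, black bars are medians (-0.33 for the 10 genes) and dashed lines mark 2-fold.

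For some of the 10, genes next to them on the chromosome had ratios of the same sign. Each gene was set beside the measured genes next to it in the GRCg7b RefSeq order, 5 on each side where the chromosome end allowed. The neighbours of PLCG2 on chromosome 11 had a median log2 ratio of -0.48, with 8 of 10 below 0, while chromosome 11 as a whole had a median of 0.04. PLCG2 was lower than each of those 10 neighbours, its log2 ratio minus their median being -0.997, and -1.38 when 10 neighbours on each side were taken. CD79B, on chromosome 27, was also lower than each of its 10 neighbours, whose median was 0.08 with 3 of 10 below 0. PLCG2 and CD79B were in the lowest 1.97% and 2.54% of all measured genes, so a place under all 10 neighbours was likely for each. What the neighbourhood contributed to either value was not tested.

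SYK lies on the Z chromosome, where the median of 406 measured genes was -0.16 and 66.7% were below 0. Its neighbours had a median of -0.44, with 9 of 10 below 0, so SYK at -0.53 was close to the genes around it. With 10 neighbours on each side that median was -0.17, with 14 of 20 below 0. INPP5D lies on chromosome 9, where the median of 262 measured genes was 0.38 and 21.0% were below 0. Its neighbours had a median of 0.50, with 9 of 10 above 0, so INPP5D at 0.16 was lower than most genes around it. BTK, at -0.53, was lower than each of its 10 neighbours on chromosome 4, whose median was 0.14, although with 10 on each side 2 of 20 were lower than BTK. The part of the chromosome in these values was not tested.

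**Figure D4:**
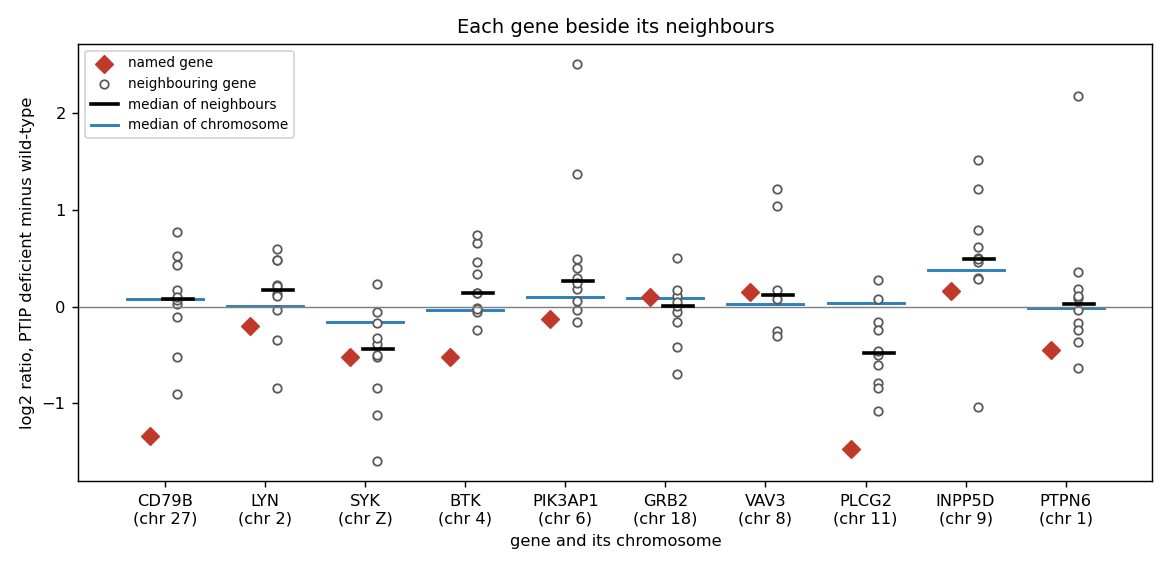
Log2 ratio (PTIP deficient minus wild-type) of each of the 10 genes (diamonds) and of its nearest measured genes on the chromosome (open circles); black bars are medians of the neighbours and blue bars medians of all measured genes of that chromosome. CD79B, BTK and PLCG2 lie under all of their neighbours, SYK lies near the median of its own (-0.44), and the neighbours of INPP5D sit around 0.50.

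Across the series, 60.4% of probe sets reached the floor in the PTIP deficient array and 59.6% in the wild-type array, and the ratio of 3′ to 5′ actin signal, a measure of RNA integrity, was 1.09 in the PTIP deficient array and 1.20 in the wild-type array. Control transcripts for hybridisation had a median log2 ratio of 0.30 over 27 probe sets, all higher in the PTIP deficient array. PAXIP1, the disrupted gene, had 593 in the PTIP deficient clone against 1045 in wild-type cells with its only measured probe set. The files do not place that probe set relative to the targeted exons, so it does not check the labels. Of 9 B cell markers, all measured, 3 (IGLL1, POU2AF1 and CD79B) were at least 2-fold lower and 0 higher, beside 4.46% and 5.03% of all measured genes. CD79B is itself among the 10 genes, so its place in that count is not separate from them. The summed signal of the 9 markers was 24728 in PTIP deficient and 63847 in wild-type cells. IGLL1 held much of that difference, at 3619 against 29961, and its 6 measured probe sets varied widely, the log2 ratio being lowest at -4.23 and highest at -0.30. Without IGLL1 and without CD79B and BTK, which are among the 10 genes, the sum of the other 6 was 13846 in PTIP deficient and 19366 in wild-type cells. SH2D6 held much of that sum, at 8895 in PTIP deficient and 8140 in wild-type cells, and whether it reports BLNK was not checked. Of the 6, 3 were below 0 and 3 above. Those above were PAX5 (log2 ratio 0.33, from signals under 131.5), IKZF3 (0.31) and SH2D6. Of 12 T cell markers on the array, 6 were measured in both arrays. At least 2-fold higher were 2 of these, CD8A and CD5, beside 5.03% of all measured genes, and 0 were lower. The other 4 lay within 2-fold. CD3D (log2 ratio 0.85) and CD247 (0.45) were above 0. CD3E (-0.03) and ZAP70 (-0.24) were below 0, from signals under 131.5. The summed T cell signal was 17509 in PTIP deficient and 9558 in wild-type cells, most of it CD3D, at 15919 against 8831, while CD4, CD28, LCK and TRAT1 were under the floor in both arrays. Of 9 macrophage and granulocyte markers 3 were measured, with SPI1, which B cells also express, 2.08-fold lower and CTSK counted as higher from signals under 131.5. Of 6 erythroid and thrombocyte markers 3 were measured and 0 were 2-fold apart. Of 9 mesenchymal and epithelial markers 5 were measured, with VIM and COL1A1 counted as higher and 0 lower. VIM was 3.03-fold higher, and COL1A1, at 206 against 65.7, at least 1.56-fold higher. No marker of these lists was at 0, and the part of these shifts in the values of the 10 genes was not tested.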

How the data were processed

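The authors deposited 1 linear signal intensity per probe set and array, made from the scans with GCOS (scanner software named in the submitters' processing notes). Its version, its algorithm and the array's genome build were not given in the sources used here. Averaged between percentiles 2 and 98, the deposited intensities came to 499.9 on each array, so they had been scaled to 1 target and a difference in total RNA per cell cannot be seen. No further scaling was applied. The 96 control probe sets with the AFFX prefix were left out. The 57 reporter probe sets stayed among the 38439 and in the percentile that set the floor. Probe sets were named from the platform annotation, and those with several symbols (177) were not used. All 10 genes matched RefSeq by Entrez identifier. Each gene was represented by its brightest probe set (highest mean log2 signal). Ratios were formed where both signals reached the floor of 31.0. Where a named gene had 1 signal under 131.5, its fold is a bound against 131.5, chosen after seeing the data. Listed symbols were matched directly, and BLNK alone as a RefSeq synonym, of SH2D6.

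With 1 array per genotype there is no test, and the number of arrays limits the precision. The 10 genes and the lists were chosen with earlier results of these data known. Named genes are the 10, PAXIP1, the 3 largest absolute ratios and every 2-fold gene of each pathway list, and relatives of the 10. Every 2-fold gene of the lipid enzyme families under Other observations was also named. RASGRP3, INPP5B and the genes named among the markers were chosen after their values were seen. The ratio step was run on simulated signals with changes larger than those of the 10 genes. That run does not check calls near 2-fold. Alternatives varied scaling, floor, pseudocount and probe set choice. Python 3.11.15, pandas 2.3.3 and statsmodels 0.14.6 were used.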

Additional observations from a re-analysis of the deposited data

How the results depend on the processing

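PLCG2 was at least 2-fold lower under all 10 alternatives (log2 ratio -1.49 to -1.34) and CD79B under the 9 that measured it (-1.35 to -1.33). The alternative floors could not alter the ratio of any of the 10 genes, because both signals of each brightest probe set lay above every floor. Taking the mean of probe sets could not alter CD79B, which has only 1. All alternatives used the same pair of arrays, so they say nothing about repeat cultures. Without _s_at and _x_at probe sets only 5 of the 10 genes could be measured, and 1, PLCG2, was at least 2-fold lower; CD79B, BTK, INPP5D and PTPN6 have no other kind of probe set and LYN no other measured one. No gene of the 10 was at least 2-fold higher under any alternative. LYN, SYK, BTK, PIK3AP1 and PTPN6 stayed below 0, and VAV3 and INPP5D above 0, under each alternative that measured them. No alternative scaled the arrays to the hybridisation controls. Their median log2 ratio of 0.30 was larger than those of VAV3 (0.16) and INPP5D (0.16), so the signs of these genes hold only for the scalings used. GRB2 turned to -0.05 with the mean of its probe sets. The pathway counts, 8 lower and 10 higher of 104 measured genes, moved with the floor, as did the shares over all genes. With no floor the counts were 12 and 13 of 120, beside 11.2% and 12% of all genes, so neither pathway share was above that of all genes. At percentile 20 the counts were 9 and 12 of 113 (all genes, 7.47% and 8.28%). At percentile 60 they were 4 and 4 of 83 (3.2% and 3.51%), and at 131.5 they were 4 and 4 of 79 (2.79% and 3.05%). With a pseudocount of 32, which pulls dim ratios towards 0, the pathway counts were 5 and 8 of 104 (3.24% and 3.3%). Scaling by the median, by quantiles or by loess altered no count of the 10 genes. Of the differences between each gene and its neighbours, that of PLCG2 moved by more than 0.36 when the neighbourhood was widened, an alternative added after seeing the data. No paired analysis was possible because each genotype has 1 array. Signals under 131.5 cannot be told from those of reporter probe sets.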

Other observations

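Enzymes that act on the products and substrates of PLCG2 and INPP5D were taken by symbol, after the values above were known: diacylglycerol kinases, the other phospholipases C, phosphatidylinositol kinases, phosphoinositide and inositol phosphate phosphatases, and inositol phosphate kinases. Of 54 such genes on the array, 40 were measured in both arrays, of which 3 passed 2-fold downwards and 4 upwards in PTIP deficient cells, beside 4.46% and 5.03% of all 9165 measured genes, and their median log2 ratio was 0.04. DGKZ, a kinase that removes diacylglycerol by phosphorylating it, was 3.44-fold higher, at 1662 in the PTIP deficient clone against 483 in wild-type cells, with log2 ratios of 0.89 and 1.78 from its 2 measured probe sets. PIP4K2A, a phosphoinositide kinase, was 2.12-fold lower (1047 against 2217). PLCD1, a phospholipase C of the delta class, was at least 2.43-fold higher (320 against 56.2) and ITPKC, an inositol trisphosphate kinase, at least 1.11-fold higher (146 against 48.3). The remaining 3, INPPL1, PLCB2 and INPP5F, had signals under 131.5 in both arrays. The 3 measured probe sets of PLCB2 ran from -1.03 to 0.65, so no direction can be read for it. INPP5B, a phosphatase that like INPP5D acts on the 5-phosphate of phosphoinositides, had 3497 against 1907 and a log2 ratio of 0.87. Of the 12 measured phosphatases of these lists, 5 were below 0.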
